A study of Mus musculus with 4 samples.

Results

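Atpif1 encodes the inhibitory factor of the mitochondrial ATP synthase. It was taken by its symbol as 1 of the 32285 genes listed for single-cell RNA-seq libraries of mouse MDSCs (myeloid-derived suppressor cells) grown with or without isoproterenol (ISO), a synthetic catecholamine. The enzyme is built from a catalytic F1 head and a membrane part, Fo, through which protons drive the making of ATP. When the proton gradient fails, the enzyme can run backwards and consume ATP, and the Atpif1 protein binds the F1 head and holds that reaction back. Atpif1 is also known for its part in heme synthesis in red cell precursors. Neutrophils pass from dividing progenitors that fill azurophil granules, through a stage that fills specific granules, to mature cells that hold few mitochondria and live mostly on glycolysis, whereas monocytes and macrophages keep a larger mitochondrial network.

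The cells came from bone marrow of young adult wildtype (WT) mice on a C57BL/6 background. They were cultured with IL-6 and GM-CSF at 40 ng/ml each, with ISO at 10 µM or PBS, and on day 4 live CD11b+ cells were sorted, pooled with multiplexing tags and captured together. Each of the groups WT + PBS and WT + ISO is 1 library, so no value below has a replicate, no test between groups was possible, and every interval is a 95% interval for counting error only. The groups follow the sample titles, because the treatment field of the labels gives isoproterenol for both.

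After filtering, 2210 of 2232 cells of WT + PBS were left, and 2264 of 2300 cells of WT + ISO, with 24393687 and 29400468 UMIs (unique molecular identifiers) and medians of 8088.5 and 10252 UMIs per cell. No barcode was shared between the libraries. Itgam, which encodes CD11b, was at 336 and 290 UMIs per 1000000 (CPM) and had a UMI in 87.5% and 88.4% of cells.

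Atpif1 (ENSMUSG00000054428) lies on the minus strand of chromosome 4, from 132530555 to 132535450 in GRCm38.p6, the build the submitters name as mm10, and RefSeq lists 3 transcripts for it. Its start faces that of Dnajc8, a splicing-associated J-domain protein gene on the plus strand from 132535559 to 132553742. Both genes therefore share the 108 bases between them as upstream sequence, and that stretch is printed because any element in it lies before both starts. It is chr4:132535451-132535558, RefSeq GRCm38.p6, minus strand, read 5′ to 3′ towards Atpif1, with capitals marking a match to the core of the NRF1 motif. NRF1 is a factor known for nuclear genes of the respiratory chain.
Atpif1 to Dnajc8: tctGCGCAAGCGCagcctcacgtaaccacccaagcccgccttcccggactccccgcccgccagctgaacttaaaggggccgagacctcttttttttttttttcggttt
The stretch holds 57.4% G and C. In the window from 250 bases before the Atpif1 start to 50 bases after it, searched on both strands, the NRF1 core (GCGCNNGCGC) matched 1 time, and 6.22% of all 32817 such windows hold it. An E-box (CACGTG) also matched 1 time, outside the printed stretch, against 7.15% of windows, and 0.792% of windows hold both motifs. The cAMP response element (TGACGTCA) and the STAT motif (TTCNNNGAA) had 0 matches, against 1.79% and 8.29% of windows. These are matches of letters and not measured binding, and the motifs shown were chosen after the sequence was read.

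Atpif1 was detected in most cells of both libraries. WT + PBS held 11535 Atpif1 UMIs, or 473 CPM (464 to 482). WT + ISO held 15048, or 512 CPM (504 to 520). The intervals did not overlap. By its total, 253 genes stood above Atpif1 with PBS and 234 with ISO, so it belongs to the more abundant transcripts of these cells.

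Per cell, the mean was 5.22 UMIs with PBS and 6.65 with ISO, with medians of 2 and 3 and maxima of 42 and 56 UMIs. A mean well above the median shows a skewed distribution, and 20.6% and 27.1% of cells held at least 10 UMIs. No Atpif1 UMI was seen in 20.7% and 18.4% of cells. With every cell thinned to 2000 UMIs, which left out 181 and 127 shallower cells, the share of cells with a UMI went from 79.3% and 81.6% to 48.8% (46.6 to 51.0) and 50.9% (48.7 to 53.0), and these intervals overlapped. The thinned means were 0.784 and 0.818 UMIs per cell. Thinning to 4000 UMIs left out 555 and 314 cells. The order of the shares then turned, with 73.7% (71.5 to 75.8) and 72.7% (70.7 to 74.7), and the means were 1.64 and 1.65.

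The largest differences in Atpif1 lay between kinds of cell. Cells were clustered on genes that excluded Atpif1 and the gene lists below, and clusters were named from marker genes. Of the 8 clusters, the azurophil-granule progenitor-like cells (748 cells, led by the myeloperoxidase gene Mpo) and the macrophage-like cells (686, led by the mannose receptor gene Mrc1) carried 586 and 542 CPM of Atpif1 over both libraries. The specific-granule neutrophil-like cells (798, led by the lactoferrin gene Ltf), a smaller cluster of that kind led by Stfa3 (67 cells) and the mature neutrophil-like cells (465, led by Retnlg) carried 194, 214 and 188 CPM. A cluster led by Stfa1 (695 cells, 548 CPM) and a cluster led by Gpnmb (976 cells, 413 CPM) met no naming rule, and the latter had a low median of 3430.5 UMIs per cell. In the Gpnmb-led cells 5 of 6 mature neutrophil markers were detected, at a mean log2 ratio of 1.79, but none was among the leading genes. A group of 39 dendritic cell-like cells led by Ccl5, with the migration receptor gene Ccr7 and Ccl22 among its leading genes, carried 740 CPM.

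**Figure D1:**
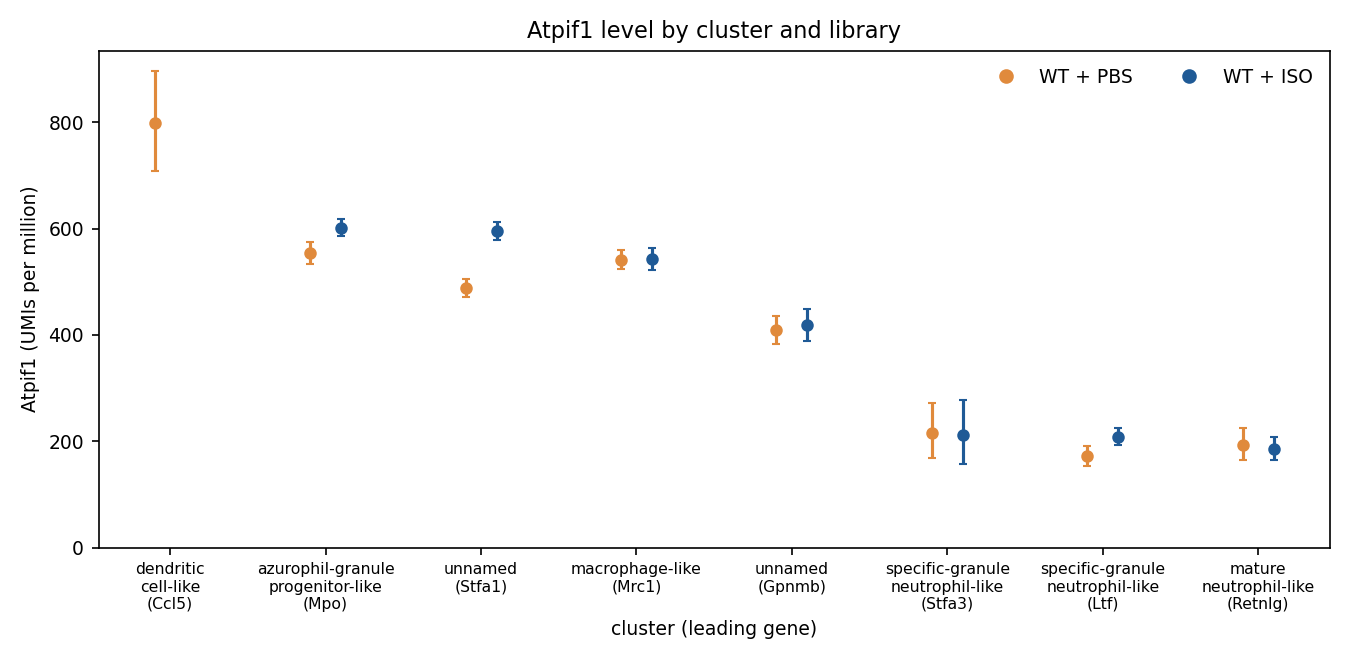
Atpif1 level (CPM within the cluster and library) in each cluster, with points for WT + PBS and WT + ISO and bars for 95% counting intervals. The 3 neutrophil-like clusters at the right lie between 172 and 215 CPM in both libraries, below all other clusters.

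In the Mpo-led progenitor cluster the level was 554 CPM (533 to 575) in WT + PBS and 602 (586 to 618) in WT + ISO. The Ltf-led cluster stood at 172 (154 to 191) and 208 CPM (193 to 225), and the mature cluster at 193 (165 to 224) and 186 CPM (165 to 209). No interval of the latter clusters met one of the progenitor cluster in either library. The Stfa3-led cluster, with 39 and 28 cells, gave 215 (168 to 272) and 212 CPM (158 to 277).

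Relative to the progenitor cluster, Atpif1 was 3.22-fold lower in the Ltf-led cluster with PBS and 2.89-fold with ISO. The mature cluster, led by Retnlg, was 2.87-fold and 3.24-fold lower than the progenitor cluster. This reference cluster was mixed, as Mpo had a UMI in 47.9% of its cells with PBS and 39.8% with ISO. In the finer clustering below, 50.6% and 56.7% of its cells were Ncam1-led cells, named specific-granule neutrophil-like. There, other cells with mature neutrophil markers, led by Gstt1 or by Pla2g7, held more Atpif1 than the Retnlg-led cells. Between the Ltf-led and mature clusters no difference was detectable at this depth, since the log2 ratio of mature over Ltf-led was 0.17 (-0.11 to 0.44) in WT + PBS and -0.16 (-0.37 to 0.04) in WT + ISO. At least 1.5-fold lower than in the progenitors in both libraries were 40.8% of all genes in the Ltf-led cluster and 42.8% in the mature cluster. In the Ltf-led cluster 22.5% and 21.7% of genes lay below Atpif1 in this log2 ratio with PBS and with ISO, and in the mature cluster 30.6% and 24.1%.

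The macrophage-like cluster held 542 CPM (524 to 559) in WT + PBS and 543 (522 to 564) in WT + ISO. The mature neutrophil-like cells were 2.81-fold and 2.92-fold below it, a contrast in which 48.5% of genes were at least 1.5-fold lower in both libraries. Against the progenitors the log2 ratio was -0.03 (-0.10 to 0.04) in WT + PBS, and in WT + ISO the progenitors were higher (-0.15, -0.22 to -0.08). This pair had no stable order, since 2 of 6 other clusterings and weightings turned its sign over both libraries.

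The Stfa1-led cluster ran from 488 CPM (472 to 505) in WT + PBS to 596 CPM (580 to 613) in WT + ISO. The Gpnmb-led cluster stood at 409 (384 to 435) and 419 CPM (389 to 449). The dendritic cell-like cells had 20 or more cells in WT + PBS only, with 799 CPM (708 to 898). This was the highest level of any cluster in that library, beyond the interval of the next.

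As a gauge of free RNA, genes of 1 cluster were read in others among the progenitor, Ltf-led, mature and macrophage-like clusters. The shallow Gpnmb-led cluster was not read. The complement gene C1qb, a macrophage gene, was at 0.206 CPM in the progenitors and at 0 UMIs in the Ltf-led and mature cells with PBS, against 42.8 CPM in the macrophage-like cells. With ISO it was at 0.109, 0.621 and 0.661 CPM, on 1 or 2 UMIs each, against 4.96 CPM. C1qb had a UMI in only 11.9% and 2.63% of the macrophage-like cells with PBS and with ISO, so it is a weak gauge. Mpo gave 2.64 to 6.69 CPM in the Ltf-led, mature and macrophage-like clusters, against 1626 and 1065 CPM in the progenitors. With cells thinned to 2000 UMIs, 59.5% and 63.3% of progenitors, 60.8% and 60.4% of macrophage-like cells and 28.4% and 25.7% of mature cells kept an Atpif1 UMI, so the gap between these clusters remained at equal depth. All 7 erythroid markers, the hemoglobin genes and Alas2 among them, were below 1 CPM in both libraries.

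A finer clustering of the same cells divided the neutrophil-like cells further. The order in which the clusters are given was set by hand, and no ordering of cells was computed. The Mpo-led cells held 687 CPM of Atpif1 with PBS and 753 with ISO, and cells led by Ncam1 with the granule genes Camp and Ngp held 337 and 410. Cells led by Cpa6, with Ltf, followed at 171 and 230 CPM. Each of these differences was beyond the intervals in both libraries. The Scrg1-led cells held 139 (111 to 172) and 140 CPM (120 to 161) and were the lowest cluster in both libraries. Their leading genes hold Retnlg, Mmp9 and Ly6g beside Ltf and Ceacam10, they met the naming rule for mature neutrophils as well, and they made up 8% and 17.7% of the mature cluster, so their place before or after the Retnlg-led cells is not given by these data. Retnlg-led mature cells held 183 (156 to 214) and 192 CPM (168 to 219), and their interval met that of the Scrg1-led cells in WT + PBS and not in WT + ISO. At this level the interval of the Mpo-led cells of WT + PBS (661 to 714) met that of the dendritic cell-like cells.

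The macrophage-like cluster divided into monocyte-like cells (led by Csta3, with F13a1) at 532 (510 to 555) and 541 CPM (516 to 567), and macrophage-like cells (led by Pf4, with the complement genes C1qa, C1qb and C1qc) at 581 (550 to 613) and 544 CPM (498 to 593). The intervals of this pair overlapped in both libraries. A further 364 cells, led by Gstt1 and named mature neutrophil-like by the naming rule, had a median of only 2036 UMIs per cell and 424 and 492 CPM of Atpif1, unlike the Retnlg-led mature cells. They made up 40.4% and 32.3% of the Gpnmb-led cluster with PBS and with ISO. Mitochondrial UMIs were 1.04% and 1.15% of their total, against 3.23% and 2.72% in the Retnlg-led cells. Free RNA was not gauged in the Gstt1-led cells. Another 448 cells, led by Pla2g7 with Mmp8, had 6 of 6 mature neutrophil markers detected. Their mean log2 ratio of 0.994 fell just short of the naming rule. These cells held 457 (423 to 493) and 437 CPM (405 to 471), and made up 39.6% and 48.3% of the Gpnmb-led cluster.

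**Figure D2:**
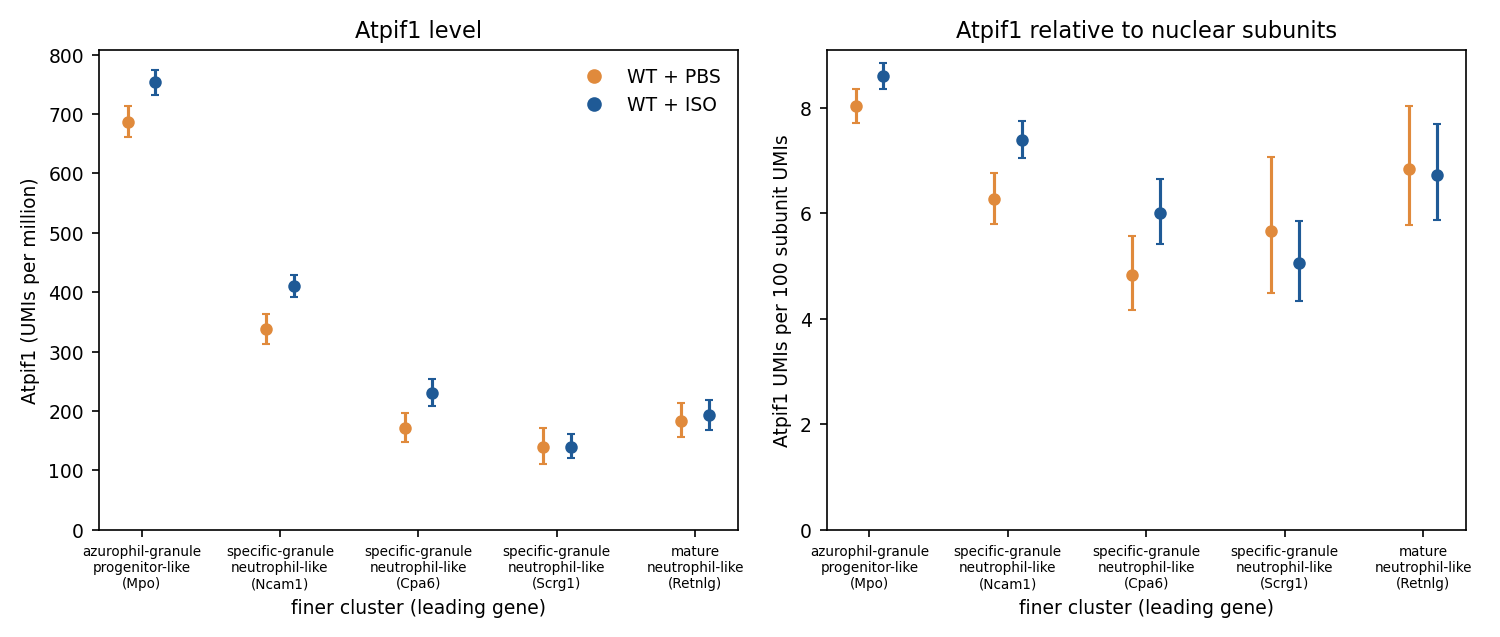
Atpif1 in finer neutrophil clusters, as CPM (left) and as UMIs per 100 UMIs of nuclear ATP synthase subunits (right), with points for WT + PBS and WT + ISO and bars for 95% counting intervals. The order of the clusters was set by hand. The level was 687 and 753 CPM in the Mpo-led cells and 139 and 140 in the Scrg1-led cells, with the Retnlg-led cells at 183 and 192. The ratio on the right lies between 4.83 and 8.61 and is highest in the Mpo-led cells in both libraries. The Gstt1-led cells, also named mature neutrophil-like, are not drawn and stand at 424 and 492 CPM. Nor are the unnamed Pla2g7-led cells, at 457 and 437 CPM.

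The transcripts of the enzyme itself were lower in the same clusters as its inhibitor. Of the 5 nuclear genes of the F1 head, 4 were at least 1.5-fold lower in the Ltf-led cluster than in the progenitors in both libraries (Atp5a1, Atp5b, Atp5c1 and Atp5d), and 11 of 12 nuclear genes of Fo and the stalks were, against 40.8% of all genes. The membrane subunit gene Atp5l was outside that count. In the mature cluster all 5 F1 genes and all 12 Fo and stalk genes were lower, against 42.8%. For Atp5b, the catalytic β subunit, the level over both libraries was 578 CPM in the progenitors, 154 in the Ltf-led cells and 115 in the mature cells. Atp5g1, which encodes the ring subunit c, went from 564 to 105 and 82.6 CPM. Both were the steepest falls of their lists. In the Ltf-led cluster the median log2 ratio to the progenitors was -0.97 with PBS and -0.89 with ISO for the F1 genes. For the Fo and stalk genes it was -0.90 and -0.86, and Atpif1 itself was at -1.69 and -1.53, beside -0.51 and -0.42 over all genes. In the mature cluster these medians were -1.46 and -1.21, and -1.34 and -1.19, with Atpif1 at -1.52 and -1.70. Over all genes the median there was -0.57 with PBS and -0.51 with ISO. The genes of the enzyme carried by the mitochondrial genome did not follow, as 0 of 2 was lower in both libraries in either contrast, and mt-Atp6 was at 5725, 6531 and 6043 CPM in these clusters.

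Other mitochondrial genes were counted in the same way, beside the 40.8% and 42.8% of all genes. All 10 genes used as a gauge of mitochondrial mass, Cox4i1 and Tomm20 among them, were lower in the Ltf-led cluster and in the mature cluster. Of the 5 assembly factors 5 and 3 were lower in these clusters. All 5 measured carriers of ADP, ATP and phosphate and their partners were lower in both. Regulators of mitochondrial biogenesis gave 4 of 7 measured genes in each. Of the heme synthesis genes 7 of 11 were lower in the Ltf-led and 8 of 10 measured in the mature cluster. Fech, the ferrochelatase gene tied to Atpif1 in red cell precursors, was in both counts. A gene was measured by its UMIs in both clusters of a contrast together, so some counted genes had few in the lower cluster. Over both libraries Alad was at 9.90 CPM in the progenitors, 0.578 in the Ltf-led and 0.415 in the mature cells. Fech was at 10.4, 5.40 and 3.32 CPM, and the biogenesis gene Polrmt at 3.78, 0.578 and 0.830. Alas1 was abundant, at 315, 182 and 141 CPM. No interval entered these counts, so they are weak for the scarce genes. Between the macrophage-like cells and the progenitors, 0 of the 17 nuclear subunit genes differed by 1.5-fold one way in both libraries, against 40.4% of all genes.

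Setting Atpif1 against the 17 nuclear subunit genes of the same cells gives a ratio that needs no scaling of libraries. It was 6.88 Atpif1 UMIs per 100 subunit UMIs with PBS (6.75 to 7.01) and 7.52 with ISO (7.40 to 7.65), and the intervals did not overlap. Across the 7 clusters measured in both libraries the ratio spanned 5.02 to 8.44, a narrower range than the 172 to 602 CPM of Atpif1 itself. The Ltf-led cells of WT + PBS were the lowest and the progenitors of WT + ISO the highest. The Ltf-led cells held 5.02 (4.49 to 5.61) with PBS and 5.85 (5.40 to 6.32) with ISO. The progenitors lay above them beyond the intervals, at 7.78 (7.48 to 8.09) and 8.44 (8.21 to 8.67). The mature cells, at 7.35 (6.26 to 8.58) and 6.43 (5.68 to 7.25), met the progenitors' interval with PBS and not with ISO. The dendritic cell-like cells stood apart at 14.1 (12.4 to 15.9) in WT + PBS.

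**Figure D3:**
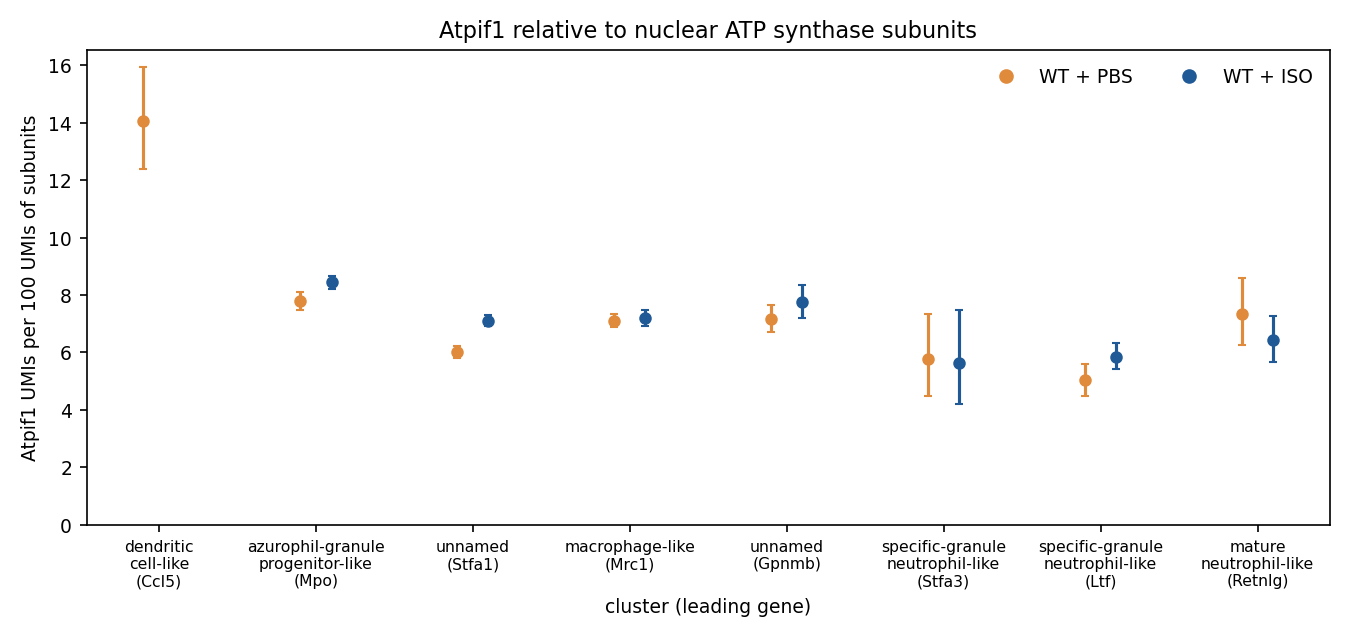
Atpif1 UMIs per 100 UMIs of the 17 nuclear ATP synthase subunit genes in each cluster, with points for WT + PBS and WT + ISO and bars for 95% counting intervals. The dendritic cell-like cells, measured in WT + PBS, lie at 14.1, and all other points between 5.02 and 8.44.

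The comparison of the libraries asks whether ISO moves Atpif1. It was higher with ISO, at 512 against 473 CPM, a log2 ratio of 0.11 (0.08 to 0.15) or 1.08-fold. With equal weight per cell the log2 ratio was 0.040, below that interval. This is a small difference beside those between clusters. It stood at the 74.8 percentile of the 11851 genes with at least 50 UMIs in the pair and a UMI in each library, whose median was -0.02, and 16.3% of genes had an interval above 0, 24.1% an interval below 0 and 8.48% a change of at least 1.5-fold in either direction. With 1 culture behind each library, culture, tag and treatment cannot be told apart, and a difference of this size between cultures of 1 group cannot be measured here.

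Within clusters the difference was not even. It was largest in the Stfa1-led cluster at 0.29 (0.22 to 0.35) and the Ltf-led cluster at 0.28 (0.09 to 0.47), and smaller in the progenitors at 0.12 (0.05 to 0.19). The macrophage-like cells, with 0.00 (-0.07 to 0.08), and the mature cells, with -0.06 (-0.33 to 0.23), showed no detectable difference, nor did the Gpnmb-led cluster at 0.03 (-0.10 to 0.17) and the Stfa3-led cluster at -0.03 (-0.57 to 0.51). In all, 3 of 7 clusters had an interval above 0 and 0 below.

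**Figure D4:**
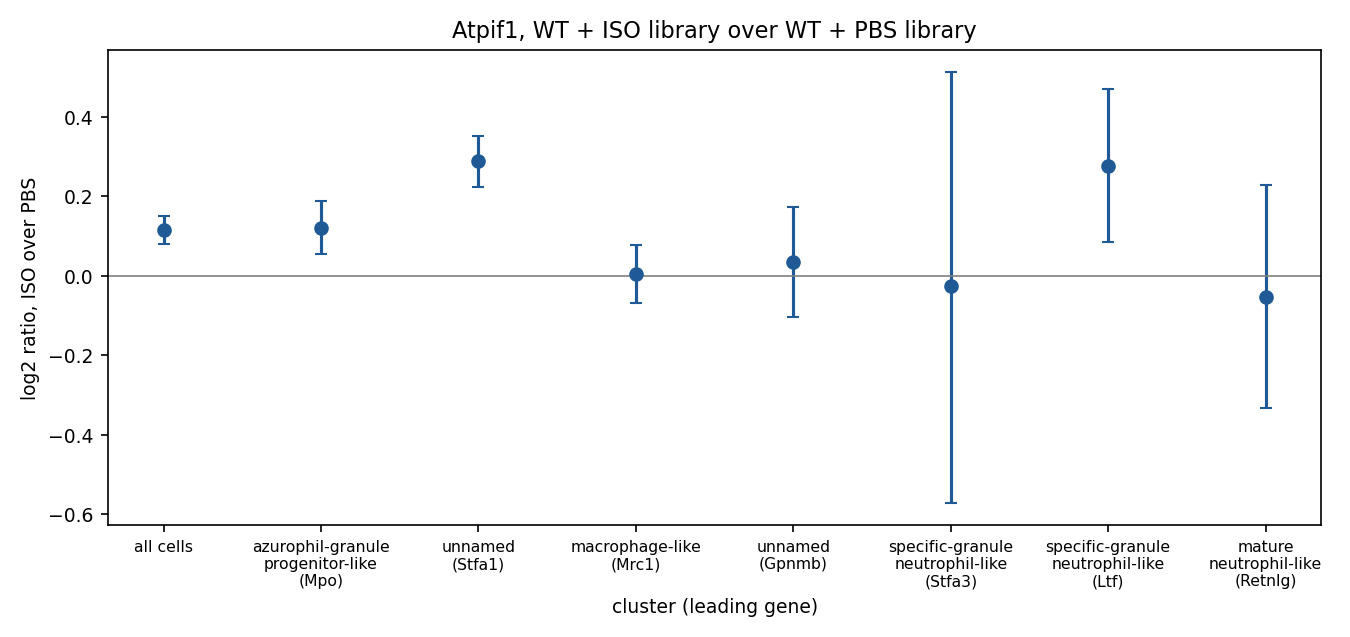
Log2 ratio of Atpif1 CPM, WT + ISO library over WT + PBS library, over all cells and in 7 clusters, with 95% counting intervals. Over all cells the point is 0.11, and the intervals of the macrophage-like, Gpnmb-led, Stfa3-led and mature clusters hold 0.

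Among the finer clusters 6 of 13 had an interval above 0 and 0 below. The largest was that of the 182 cells led by Gpnmb at this level, at 0.45 (0.03 to 0.86). It rests on 115 UMIs in 113 cells of WT + PBS and 85 UMIs in 69 cells of WT + ISO. The share of these cells with a UMI went the other way, at 65.5% and 49.3%. Thinned to 2000 UMIs it was 42.0% and 51.2%, and at 4000 UMIs 61.2% and 51.9%. The other intervals above 0 included the Mpo-led cells at 0.13 (0.06 to 0.20), the Ncam1-led at 0.28 (0.16 to 0.41) and the Cpa6-led at 0.43 (0.18 to 0.68). The Scrg1-led cells gave 0.01 (-0.37 to 0.40) and the Retnlg-led 0.07 (-0.23 to 0.37). The Stfa1-led cluster divided mainly into cells led by Lypd6b at 0.24 (0.16 to 0.32) and by Cstdc5 at 0.40 (0.26 to 0.55). Monocyte-like cells were at 0.02 (-0.07 to 0.12) and macrophage-like cells at -0.09 (-0.24 to 0.05).

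Cell composition differed between the libraries. The progenitor cluster held 11.9% of cells with PBS and 21.4% with ISO, the Ltf-led cluster 15.3% and 20.3%, the macrophage-like cluster 19.0% and 11.7%, and the Gpnmb-led cluster 27.2% and 16.6%. Within the progenitor cluster the lower-level Ncam1-led cells, which the naming rule calls specific-granule neutrophil-like at the finer level, made up 50.6% with PBS and 56.7% with ISO. The Stfa1-led cluster held 7.74% and 14.8% of Mpo-led cells, the highest of its parts in Atpif1, 34.1% and 25.5% of Cstdc5-led and 52.3% and 48.4% of Lypd6b-led cells. Monocyte-like cells made up 52.1% and 56.4% of the macrophage-like cluster. The finer clusters' shares of UMIs, which also carry the depth per cell, were also exchanged. Changing only these from the PBS library's to the ISO library's would give a log2 ratio of -0.04. Changing only the levels within the finer clusters would give 0.13. Summed over its 7 markers, the macrophage list was at 155 CPM with PBS and 64.2 CPM with ISO, with no marker below 1 CPM in both libraries. The 6 eosinophil markers summed to 65.6 and 7.38 CPM, with Ear1 below 1 CPM in both. The 10 dendritic cell markers summed to 334 and 106 CPM, with Flt3, Cd209a and Clec9a below 1 CPM in both. What part these cells had in the Atpif1 values beyond the shares given was not tested.

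The difference was also read per subunit transcript. The log2 ratio of Atpif1 per 100 subunit UMIs, ISO over PBS, was 0.13 (0.09 to 0.16) over all cells, 0.24 (0.18 to 0.31) in the Stfa1-led, 0.22 (0.03 to 0.41) in the Ltf-led and 0.12 (0.05 to 0.19) in the progenitor cluster. In the other 4 clusters the interval held 0, with 0.02 (-0.06 to 0.09) in the macrophage-like, 0.11 (-0.03 to 0.25) in the Gpnmb-led, -0.19 (-0.48 to 0.09) in the mature and -0.03 (-0.56 to 0.50) in the Stfa3-led cells. Of the F1 genes, 2 of 5 had an interval above 0 and 2 below, and of the Fo and stalk genes 1 of 12 was above and 5 below. Atp5a1, the α subunit, was at 0.08 (0.04 to 0.12), Atp5c1, the central stalk γ subunit, at -0.05 (-0.10 to -0.01), and Atp5e, the most abundant F1 gene, at 606 against 621 CPM. Among the Fo and stalk genes Atp5f1 was the highest at 0.06 (0.02 to 0.09) and Atp5j the lowest at -0.07 (-0.11 to -0.03). The medians were -0.01 over the F1 genes and -0.02 over the Fo and stalk genes, beside -0.02 over all genes. Of the genes carried by the mitochondrial genome, mt-Atp6 was at -0.11 (-0.12 to -0.10) and mt-Atp8 at 0.01 (-0.14 to 0.16).

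The remaining lists were counted in the same way, against the shares of genes given above. Of the 5 assembly factors, Fmc1 had an interval off 0, at 0.30 (0.18 to 0.41). The carriers of ADP, ATP and phosphate and their partners gave 1 above and 2 below of 5 measured genes, with Slc25a5, an adenine nucleotide carrier gene, at 0.06 (0.03 to 0.10) and Vdac1, the outer membrane channel, at -0.11 (-0.17 to -0.04). Among the genes of mitochondrial mass, 4 of 10 were above and 1 below. The chaperonin gene Hspd1 had the highest value of that list, 0.26 (0.20 to 0.31), and the respiratory chain gene Cox4i1, the most abundant, the lowest at -0.13 (-0.16 to -0.11). The list's median was 0.07.

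Regulators of mitochondrial biogenesis gave 2 above and 2 below of 8 measured genes. Polrmt, the mitochondrial RNA polymerase, was at 0.62 (0.15 to 1.10), the coactivator gene Ppargc1b at -0.54 (-0.90 to -0.19), and Nrf1, whose motif core lies in the printed stretch, at -0.14 (-0.24 to -0.04). Heme synthesis gave 1 of 11 above and 0 below, and the member above was Alas1, the first enzyme of the path and the most abundant, at 0.12 (0.07 to 0.17). Fech was at -0.04 (-0.26 to 0.18). The widest values of that list, Uros at 0.39 (-0.06 to 0.86) and Cpox at -0.17 (-0.41 to 0.07), had intervals that held 0. AMPK and LKB1 genes gave 0 above and 2 below of 7 measured, the regulatory subunit gene Prkag2 at -0.29 (-0.44 to -0.13) and the catalytic subunit gene Prkaa1 at -0.22 (-0.42 to -0.03).

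The list with the median furthest from 0 was the IL-6 receptor, JAK and STAT3 list, with 7 of 8 below and 1 above, and a median of -0.34. The kinase gene Jak2 was at -0.79 (-0.87 to -0.72), the receptor subunit gene Il6st at -0.70 (-0.92 to -0.48) and the feedback inhibitor gene Socs3 at -0.60 (-0.72 to -0.47), and these were the members past 1.5-fold. Stat3 itself was at -0.14 (-0.22 to -0.05), and Pim1, a STAT target, was the member above 0 at 0.16 (0.11 to 0.20). Of these genes 6 of 8 were also at least 1.5-fold higher in the macrophage-like than the progenitor cells in both libraries, against 28.0% of all genes. In the Ltf-led cluster the list's median log2 ratio to the progenitors was 0.87 with PBS and 0.77 with ISO, beside -0.51 and -0.42 over all genes. In the mature cluster it was 1.32 and 1.05, beside -0.57 and -0.51. Jak2 was at 1094 CPM in the 39 dendritic cell-like cells and at 176 and 35.3 CPM in the macrophage-like and progenitor cells over both libraries. The part that the shares of these cells had in the values of this list was not tested.

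**Figure D5:**
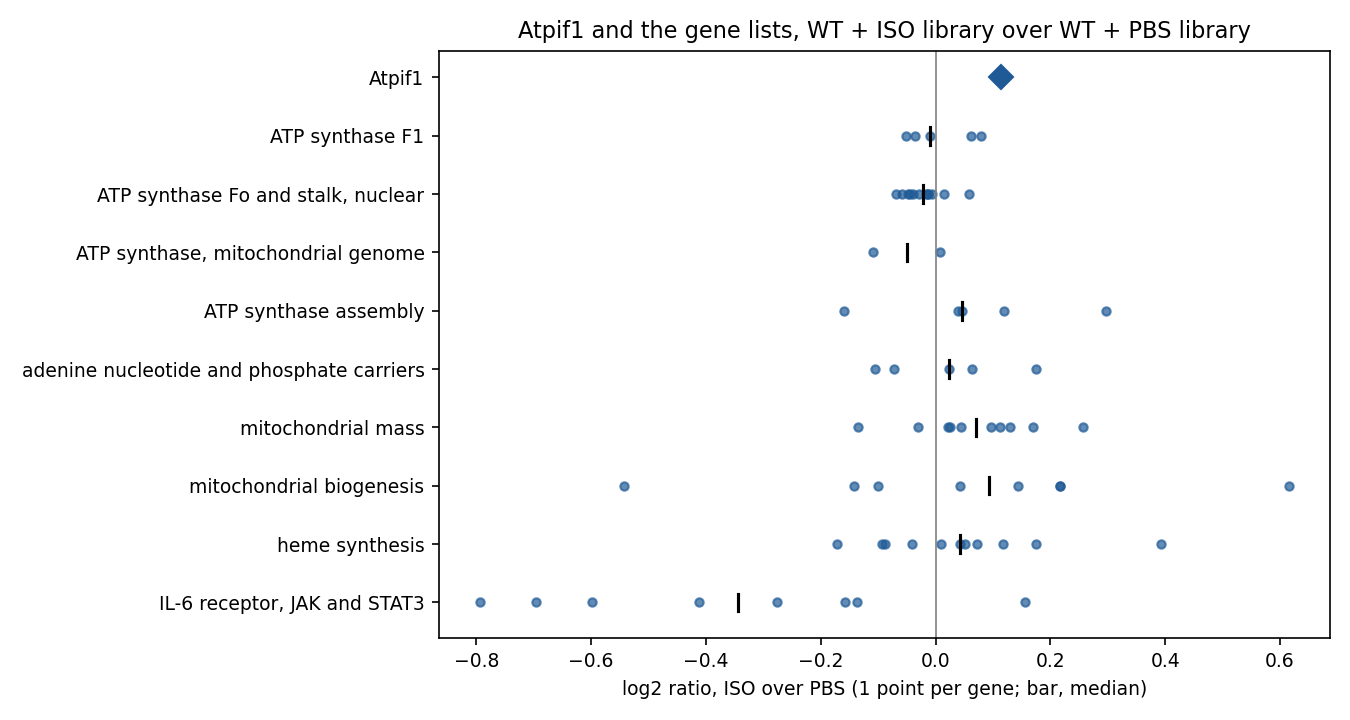
Log2 ratio of CPM, WT + ISO library over WT + PBS library, for Atpif1 (diamond) and for each gene of 9 lists (points, with a bar at the median). The point of Atpif1, at 0.11, lies above that of every subunit gene of the enzyme. Its interval (0.08 to 0.15) meets those of some of them, such as Atp5a1 (0.04 to 0.12). The IL-6 receptor, JAK and STAT3 list has its median at -0.34.

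Dnajc8, across the shared upstream stretch, was at 149 CPM in WT + PBS and 161 in WT + ISO, a log2 ratio of 0.11 (0.05 to 0.17). Over both libraries it was lowest in the mature (85.5 CPM), Stfa3-led (87.6 CPM) and Ltf-led clusters, the clusters where Atpif1 was lowest too. It was 179 CPM in the progenitors, 180 in the Stfa1-led and 174 in the dendritic cell-like cells. The macrophage-like cells held less Dnajc8 (139 CPM) than the Gpnmb-led cells (160 CPM), although their Atpif1 was higher (542 against 413 CPM). In the Ltf-led and mature clusters 40.8% and 42.8% of all genes were at least 1.5-fold below the progenitors in both libraries, so lower levels there are common.

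Finally, all genes with a mean of at least 20 CPM were ranked by how closely they tracked Atpif1 over 14 points, 7 clusters in 2 libraries, with Pearson's r of log2(CPM + 1). The points share libraries, depth and cell composition, and the median r of the 5399 genes was 0.43 with 883 genes at 0.9 or more, so a high r is common and is given as a description. The 10 most alike were Timm13 (r = 0.989), Nudt5, Rwdd4a, Pbdc1, Micos10, Nme1, Hspa8, Srm, Zfp91 and Ranbp1, down to 0.983. Timm13 encodes a carrier of proteins across the space between the mitochondrial membranes and Micos10 a part of the complex that shapes the cristae, while Hspa8 is a cytosolic chaperone and Srm makes spermidine. Timm13 was at 317 CPM in the progenitors, 318 in the macrophage-like, 79.4 in the Ltf-led and 77.2 in the mature cells.

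The least alike were Pacs1 (r = -0.97), Vasp, Asprv1, Slc27a4 and Stx11. Asprv1 was at 14.2 CPM in the progenitors and 242 CPM in the mature cells, and Vasp, a regulator of actin filaments, at 228 and 514 CPM. The nuclear subunits of the enzyme had a median r of 0.94 in both the F1 and the Fo lists, with Atp5g1 the highest at 0.98 and Atp5h the lowest at 0.77. Of the mass genes 9 were abundant enough to enter, with a median of 0.95, and of the heme synthesis genes 3, with a median of 0.70. For mt-Atp6 and mt-Atp8 the median was -0.42. Which genes are named depends on the measure, as 0 of the 10 were among the 10 most alike by Spearman's rho.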

How the data were processed

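Live CD11b+ MDSCs were profiled on the 10X Genomics platform. All 4 libraries entered filtering, clustering and cluster naming, every value given is from WT + PBS and WT + ISO, and other comparisons are not reported here. The authors deposited raw counts of UMIs, not normalized, for barcodes already assigned to a sample by tag. The file header gives Cell Ranger 7.0.0, the submitters' processing notes Cell Ranger 6.0.0, Seurat and mm10. Whether introns were counted is not given in the sources used here. The 12 tags were left out, and no column of another sample was present.

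Cells under 200 genes or over 10% mitochondrial UMIs were dropped, and the rest were scaled to 10000 UMIs and log-transformed, and clustered with scanpy 1.11.5 (2000 variable genes, 30 components, 15 neighbours, Leiden resolution 0.4, seed 0, and 1.0 for finer clusters). Atpif1 and all listed genes were left out of clustering. A name needed 3 markers in at least 10% of the cells, their mean log2 ratio to be 1 or more, and 1 marker among the 10 leading genes, a rule written after the clusters were seen. No doublet caller was run, and an alternative left out the 2% of cells with the most UMIs. The captured pool shares its free RNA.

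CPM is summed UMIs per 1000000. Intervals are exact Poisson for a CPM, Clopper-Pearson for a share, exact conditional binomial for a ratio, and normal on log counts for a ratio of ratios, all at 95%. A gene was compared at 50 UMIs in the pair, a cluster at 20 cells in a library. Gene lists were described by counts and medians. Atpif1, and the lists, were chosen with earlier results of these data known, and the genes named were Atpif1, the list members at the head or extremes of each list, and the 10 most and 5 least alike. Genes named with a cluster are its leading genes, and some subunit genes were named after their values were seen. The ratio intervals were tested on simulated counts with Poisson error only, so that test does not cover spread between cells or cultures. Sequences are RefSeq's (GRCm38.p6), matched by symbol. Alternatives are given in the closing section.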

Additional observations from a re-analysis of the deposited data

How the results depend on the processing

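Of the values recomputed under the alternatives, 21 stayed within the counting interval of the value reported or shared most of its genes, 26 moved outside it and 2 turned sign. No paired analysis was possible because there is a lone library in each group, and the titles carry the same replicate number. The limits are the lone library per group, the cluster names and a shared pool of free RNA. Over all cells, the level of Atpif1 was above WT + PBS in WT + ISO under every setting run.

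Levels in WT + PBS and WT + ISO were 610 and 681 CPM without the 20 most abundant genes in the total, 393 and 404 with equal weight per cell, and 462 and 498 without the 2% of cells with the most UMIs. The log2 ratio, ISO over PBS, was 0.16 with median-of-ratios size factors, 0.16 without the 20 genes and 0.040 with equal weight per cell, and its 8 alternatives ran from 0.040 to 0.16. One of these, the finer clusters at fixed weights (0.14), was chosen after seeing the data.

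Over both libraries, the mature over progenitor log2 ratio was -1.64. It was -1.17 with 30 neighbours, -1.48 at resolution 1.0, -1.46 with equal weight and -1.48 in cells thinned to 4000 UMIs. For the specific-granule cells the ratio was -1.58, and -1.30 with 30 neighbours, -1.23 with 4000 variable genes, -1.28 at resolution 1.0 and -1.45 at 4000 UMIs. The macrophage-like over progenitor ratio, -0.11, was -0.48 with 30 neighbours, -0.039 with 4000 variable genes and -0.36 at resolution 1.0, and turned to 0.055 with equal weight and 0.032 at 4000 UMIs. A name covered different cells in different clusterings. The mature name covered 465 cells here, 1349 with 30 neighbours, and the Gstt1-led cells (444 CPM) beside the Retnlg-led at resolution 1.0. The cause of these moves was not tested.

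Per 100 UMIs of F1 subunits alone, Atpif1 was at 21.3 and 23.0, and per 100 of the mass genes at 19.4 and 20.8. Of the 10 genes most like Atpif1, 0 were shared with the ranking by Spearman's rho and 4 with that over cluster means.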
